A study of Macaca mulatta with 10 samples.

Results

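The 10 genes described here were 3 chains of the interferon receptors (IFNAR1, IFNAR2 and IFNLR1) and 7 classical interferon-stimulated genes (ISG15, MX1, IFI6, IFIT1, IFIT3, OAS1 and IFI44L). They were found by symbol among the 26484 genes of a count table from Tr1 cells, a regulatory subset of CD4+ T cells, and all 10 were listed. The cells were sorted as CD4+ CD49b+ LAG3+ from thawed blood mononuclear cells, rested overnight, of rhesus macaques that had received islet allografts. Both cohorts were given the same transient immunosuppression, with an antagonistic anti-CD40 antibody (2C10R4), rapamycin, a soluble tumor necrosis factor receptor and an antibody to the interleukin 6 receptor. The 5 Cohort C monkeys (13EP5, 14HP33, 14HP24, 15CP1 and 15CP4) additionally received infusions of apoptotic donor leukocytes (ADLs), and the 5 Cohort B monkeys (13EP12, 13EP8, 14HP26, 14HP31 and 15CP6) did not. There was 1 library per monkey. The labels place blood collection at sacrifice, at rejection for Cohort B and at the planned end point for Cohort C, so that ADL treatment and the occasion of sampling cannot be told apart. For monkeys 13EP12, 13EP8 and 15CP1 the study's text differs from the labels on that occasion. The comparison asks whether Tr1 cells from ADL-treated recipients differed in transcripts of the interferon pathway from those of recipients given immunosuppression alone.

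Type I interferons signal through a receptor made of IFNAR1 and IFNAR2, and type III interferons through IFNLR1 paired with IL10RB. Both receptors activate the kinases JAK1 and TYK2, and the signal reaches the nucleus through transcription factors that bind the promoters of interferon-stimulated genes. The products of these genes restrict viruses at entry, replication and translation, and some of them, such as ISG15, also modify other proteins or dampen the response. Type I interferon acts on nearly all nucleated cells, including T cells, whereas IFNLR1 is known mainly from epithelium and from some leukocytes.

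The libraries differed widely in depth. Total counts ranged from 6076 to 5895609 and the genes with at least 1 count from 465 to 15068. Only 13EP12 and 13EP8 of Cohort B and 13EP5 and 15CP1 of Cohort C had counts on at least 6 of 8 housekeeping genes, and they are called the covered libraries here. The other 6 libraries had counts on between 1 and 5 of the 8. In 14HP33, the transcript MTRNR2L1 dominated the counts, and the TMM factor was 0.0725, which raised every CPM value of that library. CPM denotes counts scaled to a common library size after edgeR's TMM factors. Transcripts of the sort markers were sparse, with 2002 counts on CD4, 68 on ITGA2 (which encodes CD49b) and 38 on LAG3 over all libraries, and 13EP8 had none on LAG3. T cell genes were present at 10 of 10 in each covered library. In bulk libraries such as these, fewer cells carrying a transcript and less transcript per cell cannot be told apart.

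The 10 genes were rarely sampled. They took 1856 counts in all, of which 1834 (98.8%) lay in the 4 covered libraries. Of the 100 combinations of gene and library, 35 had any count. Monkey 15CP1 had counts on all 10 genes, 13EP5 on 9, 13EP8 on 7 and 13EP12 on 6. Beyond these, 14HP33 had 16 counts on IFNLR1 and 5 on IFIT3, and 14HP24 had 1 count on ISG15. The libraries of 14HP26, 14HP31 and 15CP6 in Cohort B and of 15CP4 in Cohort C had 0 counts on every one of the 10 genes. In the covered libraries, the 10 genes together made up 0.0135% of the counts in 13EP12 (95% Wilson interval 0.0116 to 0.0158%), 0.0109% in 13EP8 (0.00932 to 0.0128%), 0.0177% in 13EP5 (0.0163 to 0.0192%) and 0.0158% in 15CP1 (0.0148 to 0.0168%). These intervals cover the counting error of independent reads only. The reads carried no molecular identifiers, so the intervals could be too narrow. Both Cohort C shares lay above the share of 13EP8, while the intervals of 13EP12 and 15CP1 overlapped.

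**Figure D1:**
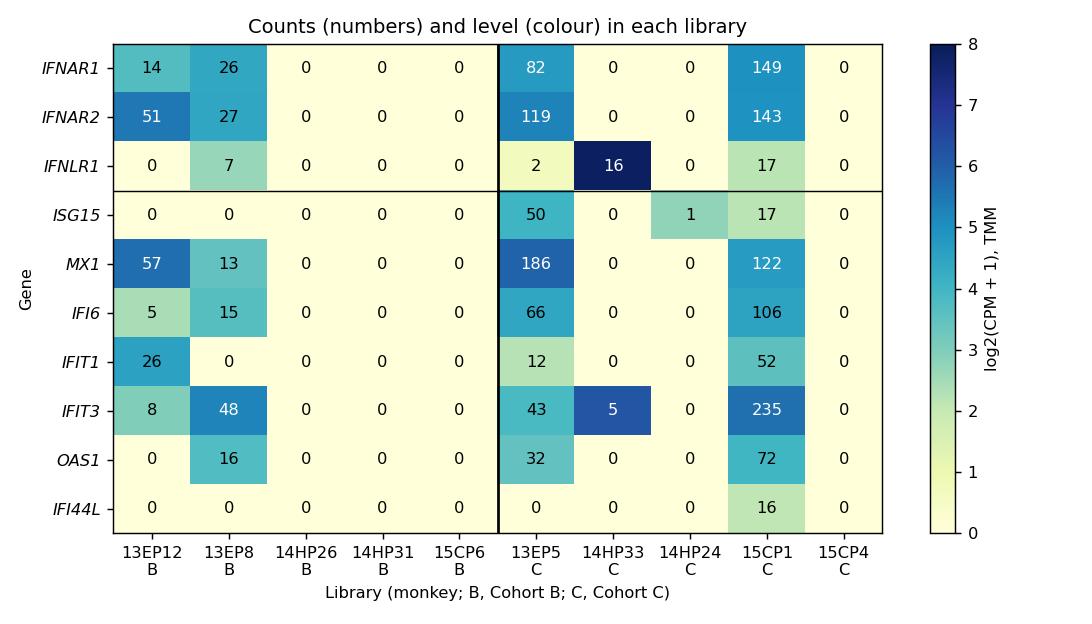
Counts of the 10 genes (rows) in the 10 libraries (columns), printed in each cell, with colour giving log2(CPM + 1) after TMM scaling. Counts lie almost entirely in 13EP12, 13EP8, 13EP5 and 15CP1, and the dark cells of 14HP33 are 16 and 5 counts raised by its TMM factor of 0.0725.

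For each library outside the covered ones, the counts that the 10 genes would have had at the median CPM of the covered libraries were computed. This gave 70.9 counts in 15CP6, 26.7 in 14HP26, 27.2 in 14HP24, 25.1 in 15CP4 and 3.96 in 14HP31. The counts seen were 0, 0, 1, 0 and 0. In 14HP33, 11 counts were computed and 21 seen. The 11 rests on its TMM factor of 0.0725, which reduces its 968423 counts to a size of 70205. More would be computed from its total alone. In 15CP6, 7 of the 10 genes would have had over 3 counts, with MX1 at 16.9, so its zeros lay below what its total would give at that level. Of 44 other interferon-stimulated genes, that library had counts on 20, with 907 counts in all, among them 261 on SAMD9L, a growth-restricting antiviral factor, and 56 on IFIT2. For 14HP31 the totals were too low for any of the 10 to be expected above 3 counts, and its zeros carry no information on the level. With the TMM scaling, none of the 10 was expected above 3 counts in 14HP33 either (largest 2.62, for MX1).

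**Figure D2:**
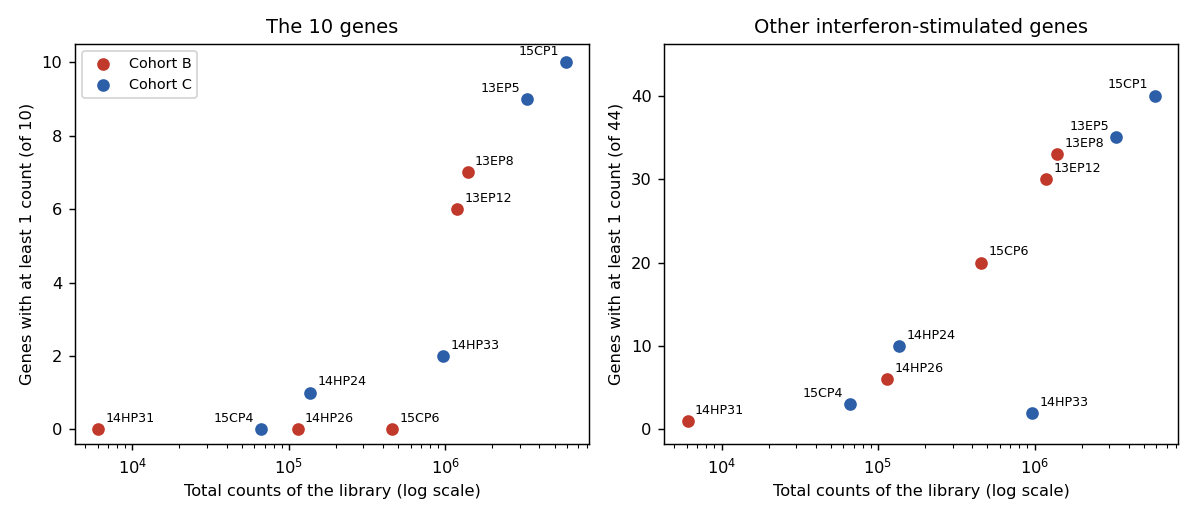
Number of genes with at least 1 count against total counts of the library (log scale), for the 10 genes (left) and for 44 other interferon-stimulated genes (right). Points are libraries, red for Cohort B and blue for Cohort C. 15CP6 had 0 of the 10 but 20 of the 44, and 14HP33 had 2 of the 10 and 2 of the 44 at 968423 total counts.

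Of the type I receptor chains, IFNAR1 was higher in both covered libraries of Cohort C than in both of Cohort B, and IFNAR2 was not. IFNAR1, the chain that recruits TYK2, had 14 counts (12.1 CPM) in 13EP12 and 26 (19.9 CPM) in 13EP8, against 82 (25.6 CPM) in 13EP5 and 149 (30.9 CPM) in 15CP1. The other 3 libraries of each cohort had 0 counts, so the cohorts overlapped. The mean log2(CPM + 1) was 1.62 ± 2.23 in Cohort B and 1.95 ± 2.67 in Cohort C (SD, n = 5 monkeys each; exact permutation test, two-sided p = 0.683). The log2 fold change of the edgeR fit was 0.72 (SE 2.03, adjusted p = 1), and was -0.03 without 15CP1.

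IFNAR2, the chain with the high affinity for type I interferon, had 51 counts (44.3 CPM) in 13EP12 and 27 (20.6 CPM) in 13EP8, against 119 (37.1 CPM) in 13EP5 and 143 (29.7 CPM) in 15CP1. The Cohort C values lay between those of Cohort B. The mean log2(CPM + 1) was 1.99 ± 2.75 in Cohort B and 2.04 ± 2.79 in Cohort C (SD, n = 5 each; exact permutation test, two-sided p = 1). The fitted log2 fold change was 0.0046 (SE 2.09, adjusted p = 1), and its sign turned with RLE normalization and with library size only. IFNAR1 made up 21.5% of the counts on both chains in 13EP12, 49.1% in 13EP8, 40.8% in 13EP5 and 51.0% in 15CP1, and the lowest and highest of these came from different cohorts.

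IFNLR1, the ligand-binding chain of the type III receptor, showed a different pattern over the libraries. It had 0 counts in 13EP12, 7 (5.35 CPM) in 13EP8, 2 (0.624 CPM) in 13EP5, 16 (228 CPM) in 14HP33 and 17 (3.53 CPM) in 15CP1. The value of 14HP33 was 16.5 CPM when only the library total was used for scaling, which is still the highest of the 10 libraries. The mean log2(CPM + 1) was 0.53 ± 1.19 in Cohort B and 2.14 ± 3.31 in Cohort C (SD, n = 5 each; exact permutation test, two-sided p = 0.405). The fitted log2 fold change was 4.84 (SE 2.51, adjusted p = 0.251). It rested on 14HP33, without which it was -0.12, and it was 8.38 without 13EP8. Among the covered libraries the highest level was that of 13EP8, a Cohort B monkey, and the fit over these 4 gave -0.57. IFNLR1 and ISG15 also stand in the study's own list of differing genes, which was made from these same libraries and is therefore no independent evidence of their direction.

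ISG15, a ubiquitin-like protein that is attached to other proteins and is also secreted, was the only one of the 10 genes with counts in several Cohort C libraries and none in Cohort B. It had 50 counts (15.6 CPM) in 13EP5, 17 (3.53 CPM) in 15CP1 and 1 (5.77 CPM) in 14HP24. The 1 count of 14HP24 was under the floor of 3 counts, yet its log2(CPM + 1) of 2.76 was above the 2.18 of 15CP1. ISG15 had 0 counts in 14HP33 and 15CP4 and in all 5 Cohort B libraries, so the cohorts still overlapped at 0. With the 0 of Cohort B set to 3 counts over the group, its pooled level was at least 8.36-fold higher in Cohort C (at least 6.88-fold without the TMM factors). This bound was 3.57-fold without 13EP5 and 14.6-fold without 15CP1. The mean log2(CPM + 1) was 0 ± 0 in Cohort B and 1.80 ± 1.78 in Cohort C (SD, n = 5 each; exact permutation test, two-sided p = 0.167). The edgeR fit gave an adjusted p = 0.141, and its log2 fold change of 5.70 (SE 2.29) depends on the prior count because Cohort B had none. 

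Of the 68 counts on ISG15, 73.5% came from 13EP5, without which the difference in mean log2(CPM + 1) was 1.23 in place of 1.80. At the level of 13EP5, the 2 covered Cohort B libraries would have had 18.0 counts (13EP12) and 20.4 counts (13EP8), against 0 seen in each. At the level of 15CP1 they would have had 4.07 and 4.61 counts, which is close to the floor of 3. Monkey 13EP5 also stood apart in markers of other cells. Plasmacytoid dendritic cells are the blood cells known for abundant interferon production and for high IRF7 and IRF8. Their 5 listed markers summed to 502 counts (156.5 CPM) in 13EP5 and 55 (11.4 CPM) in 15CP1, against 0 to 4 counts in Cohort B and 0 in the other 3 Cohort C libraries. Of the 502 counts, 485 were on PACSIN1 and 17 on CLEC4C, while LILRA4 had counts only in 15CP1 (32) and IL3RA and SCT were at 0 everywhere. IRF8 had 5717 counts in 13EP5 against at most 573 in any other library. These counts are not scaled for depth, which makes the gap look larger. IRF8 had 224 counts in 15CP6 and 89 in 15CP4, from totals of 455470 and 66485, against 3341503 in 13EP5. The 6 platelet markers summed to 885 counts (276 CPM) in 13EP5 and to at most 26 in any other library, with GP9 and GP1BB at 0. The part of these cells in the ISG15 counts was not tested. Markers of other leukocytes, some of which also express these genes, had counts in all 4 covered libraries. The 7 monocyte markers summed to 312 counts (271 CPM) in 13EP12, 501 (383 CPM) in 13EP8, 295 (92.0 CPM) in 13EP5 and 2073 (430 CPM) in 15CP1. The 7 B cell markers summed to 64 (55.5 CPM), 119 (91.0 CPM), 169 (52.7 CPM) and 477 (99.0 CPM) in the same order. In CPM, 15CP1 was thus near 13EP8 of Cohort B for both lists.

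MX1, a dynamin-like GTPase that blocks viral ribonucleoproteins, was the most sampled of the 10 genes. It had 57 counts (49.5 CPM) in 13EP12 and 13 (9.94 CPM) in 13EP8, against 186 (58.0 CPM) in 13EP5 and 122 (25.3 CPM) in 15CP1. The covered libraries of the cohorts interleaved. The mean log2(CPM + 1) was 1.82 ± 2.61 in Cohort B and 2.12 ± 2.93 in Cohort C (SD, n = 5 each; exact permutation test, two-sided p = 0.841). The fitted log2 fold change of 0.43 (SE 2.06, adjusted p = 1) ranged from -1.03 without 13EP5 to 2.35 without 13EP12.

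IFI6, a small membrane protein that protects cells from flavivirus replication and from apoptosis, had 5 counts (4.34 CPM) in 13EP12 and 15 (11.5 CPM) in 13EP8, against 66 (20.6 CPM) in 13EP5 and 106 (22.0 CPM) in 15CP1. Both covered Cohort C libraries were above both of Cohort B, and the other 6 libraries were at 0. The mean log2(CPM + 1) was 1.21 ± 1.71 in Cohort B and 1.79 ± 2.45 in Cohort C (SD, n = 5 each; exact permutation test, two-sided p = 0.683). The fitted log2 fold change was 1.25 (adjusted p = 1).

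IFIT1 and IFIT3, which form a complex that recognizes viral RNA caps, did not follow each other. IFIT1 had 26 counts (22.6 CPM) in 13EP12 and 0 in 13EP8, against 12 (3.74 CPM) in 13EP5 and 52 (10.8 CPM) in 15CP1. IFIT3 had 8 counts (6.94 CPM) in 13EP12 and 48 (36.7 CPM) in 13EP8, against 43 (13.4 CPM) in 13EP5, 5 (71.2 CPM) in 14HP33 and 235 (48.8 CPM) in 15CP1. IFIT1 was 76.5% of the counts on both genes in 13EP12 (95% Wilson interval 60.0 to 87.6%), 21.8% in 13EP5 (12.9 to 34.4%) and 18.1% in 15CP1 (14.1 to 23.0%), and 0 of 48 in 13EP8, where the interval reached 7.41%. The 2 Cohort B libraries therefore lay at the opposite ends, with intervals that did not overlap. These intervals treat each read as independent, which could not be checked without molecular identifiers.

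The mean log2(CPM + 1) of IFIT1 was 0.91 ± 2.04 in Cohort B and 1.16 ± 1.66 in Cohort C (SD, n = 5 each; exact permutation test, two-sided p = 1). Its fitted log2 fold change was -0.58 (SE 1.87, adjusted p = 1), the only one of the 10 below 0, and it was 5.11 without 13EP12. For IFIT3 the means were 1.65 ± 2.39 and 3.13 ± 2.99 (SD, n = 5 each; exact permutation test, two-sided p = 0.365), with a fitted log2 fold change of 1.42 (SE 2.12, adjusted p = 0.993). The highest IFIT3 value was the 71.2 CPM of 14HP33, from 5 counts. The fold change was 0.71 without that library, 0.29 with library size only and 0.31 in the covered libraries.

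OAS1, which makes the 2′-5′-linked oligoadenylates that activate RNase L, had 0 counts in 13EP12 and 16 (12.2 CPM) in 13EP8, against 32 (9.98 CPM) in 13EP5 and 72 (14.9 CPM) in 15CP1. The 13EP8 value lay between those of Cohort C. The mean log2(CPM + 1) was 0.75 ± 1.67 in Cohort B and 1.49 ± 2.05 in Cohort C (SD, n = 5 each; exact permutation test, two-sided p = 0.722). The fitted log2 fold change was 0.88 (SE 1.89, adjusted p = 1), and was 5.75 without 13EP8 and 0.03 without 15CP1.

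IFI44L, a cytoplasmic protein often used in blood interferon scores, was seen in a single library, with 16 counts (3.32 CPM) in 15CP1. At that level 13EP5 would have had 10.6 counts, against 0 seen, and the covered Cohort B libraries 3.83 (13EP12) and 4.34 (13EP8). With Cohort B set to 3 counts over the group, the bound on the pooled level of Cohort C was 1.97-fold (1.62-fold without the TMM factors). This bound was 3.17-fold without 13EP5 and 0 without 15CP1, so it is the value of 1 monkey. The edgeR fit gave an adjusted p = 0.227, and the exact permutation test gave two-sided p = 1. A fold change of a gene found in 1 monkey carries no replicate check within its cohort.

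Of the 10 genes, 0 were called at the study's thresholds (unadjusted p below 0.01, 1.5-fold or more), at which 6.43% of the 14168 genes tested were called in either direction and 1.07% as higher in Cohort C. At an adjusted p under 0.05, again 0 of the 10 were called, beside 0% of all genes. DESeq2 and limma-voom also called 0 of the 10. By edgeR, 2 of the 10 (ISG15 and IFI44L) had an unadjusted p under 0.05, against 20.6% of all genes tested. The share of the 10 was thus close to that of all genes. Fitted log2 fold changes were above 0 for 9 of the 10, against 53.5% of all genes, and their median was 1.06 (0.93 with ISG15 and IFI44L at their bounds), against 0.16 over all genes. DESeq2 gave 6 of 10 above 0 with a median of 0.18, and the covered libraries alone 7 of 10 with 0.52. For the 7 stimulated genes alone the median was 1.25 (0.98 with the bounds). Since the exact permutation test over 5 against 5 libraries cannot go below 0.00794, and since most genes were at 0 in most libraries, only 34 genes (0.240%) reached an unadjusted permutation p under 0.05, and the 10 were not among them.

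**Figure D3:**
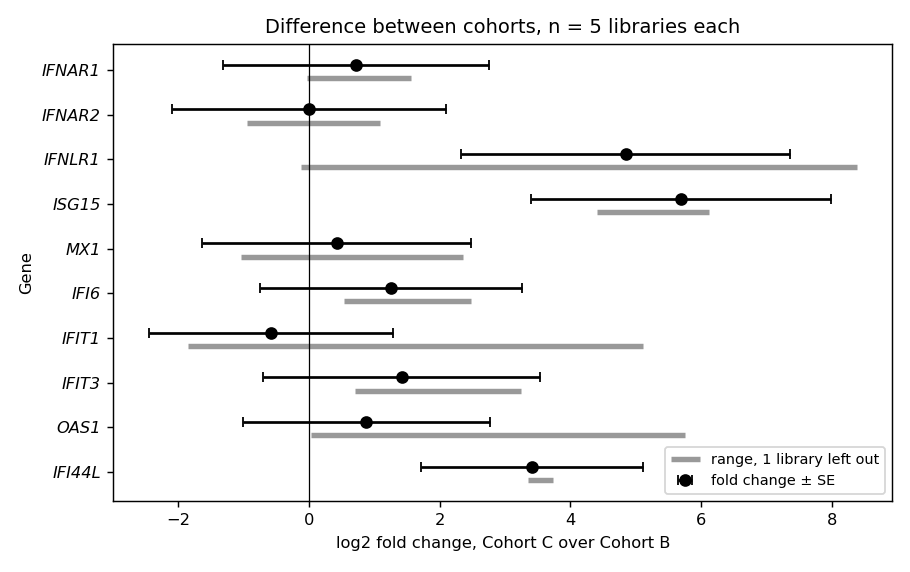
Fitted log2 fold change of Cohort C over Cohort B for the 10 genes (points, bars of 1 SE; edgeR, n = 5 libraries per cohort), and the range when each library in turn was left out (grey). The grey ranges of IFNAR1, IFNAR2, IFNLR1, MX1 and IFIT1 cross 0, and the ISG15 and IFI44L points have no counts in Cohort B.

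In the 4 covered libraries, both Cohort C values lay above both Cohort B values for 3 of the 10 genes (IFNAR1, ISG15 and IFI6), and none of the 10 had the opposite order. Of all genes tested, 31% showed the same order and 6.98% the opposite order, so that the 10 did not stand out in either. With 2 libraries per cohort an exact permutation test cannot go below p = 0.333. The same 3 genes were found when counts were divided by library size only or by the counts on 10 T cell genes. The comparison of this order and both scalings were added after seeing the data.

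Relative to the T cell genes, the 7 stimulated genes had 5.04 counts per 100 T cell counts in 13EP12 and 4.62 in 13EP8, against 8.77 in 13EP5 and 6.87 in 15CP1. The 3 receptor chains had 3.41 and 3.01, against 4.58 and 3.43. The cohort order of the stimulated genes was thus the same on this scale, and the receptors of 13EP12 and 15CP1 were nearly equal. Of all genes tested, 29.4% had this order on it. In CPM, the 8 housekeeping genes also had it, with 5238 in 13EP12 and 5442.5 in 13EP8 against 8376 in 13EP5 and 7228 in 15CP1. The 44 other interferon-stimulated genes did not, with 2582 and 2638 against 2290 and 3205. By gene, ISG15 had 11.3 counts per 1000 T cell counts in 13EP5 (95% exact Poisson interval 8.37 to 14.9) and 1.88 in 15CP1 (1.10 to 3.02), and the upper limits in 13EP12 (1.94) and 13EP8 (1.85) lay inside the interval of 15CP1. IFI6 had 2.62 (0.852 to 6.12) in 13EP12 and 7.53 (4.21 to 12.4) in 13EP8, against 14.9 (11.5 to 18.9) in 13EP5 and 11.8 (9.62 to 14.2) in 15CP1. The interval of 13EP8 overlapped those of both 13EP5 and 15CP1.

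**Figure D4:**
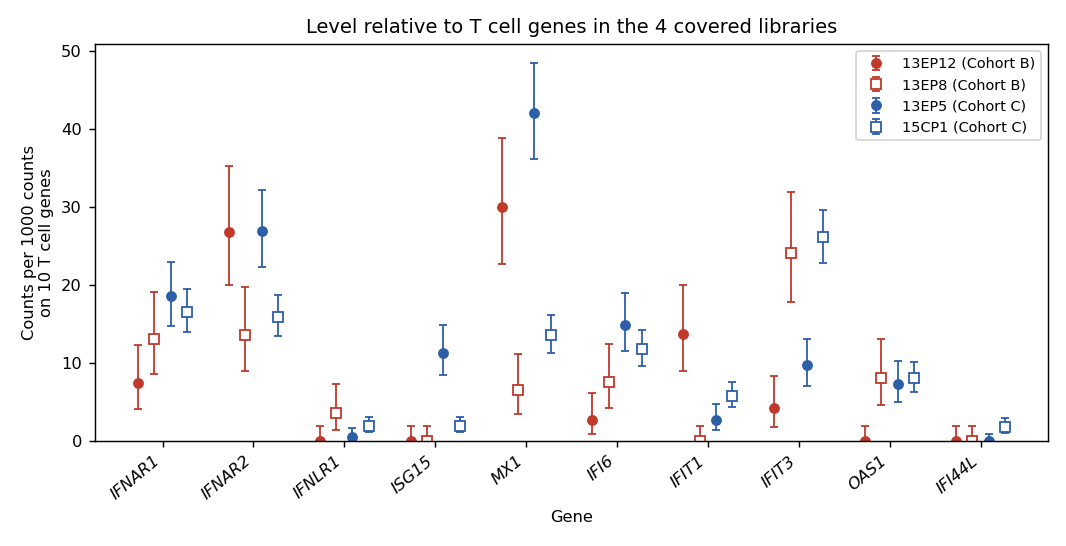
Counts of each of the 10 genes per 1000 counts on 10 T cell genes in the 4 covered libraries (red, Cohort B; blue, Cohort C), with 95% exact Poisson intervals for counting error only. For MX1 and IFIT3 the intervals of the 2 monkeys of each cohort lie apart, and ISG15 is at 0 in both red libraries.

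The make-up of the interferon-stimulated counts differed between monkeys of the same cohort. MX1 was 59.4% of the counts on the 7 genes in 13EP12 but 14.1% in 13EP8, and 47.8% in 13EP5 but 19.7% in 15CP1. IFIT3 had the reverse order, with 8.33% and 52.2% in Cohort B and 11.1% and 37.9% in Cohort C. By these shares 13EP12 was nearer to 13EP5, and 13EP8 nearer to 15CP1, than to the other monkey of its own cohort. ISG15 was 12.9% of the counts in 13EP5 and 2.74% in 15CP1, against 0 in both of Cohort B, and IFI6 was 5.21% in 13EP12 and 16.3% in 13EP8, against 17.0% and 17.1% in Cohort C.

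**Figure D5:**
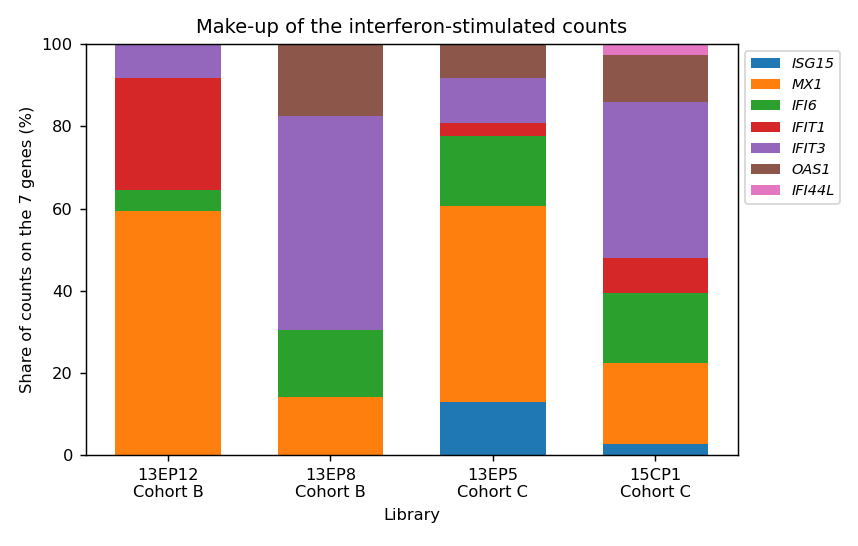
Share of each of the 7 interferon-stimulated genes in their summed counts, for the 4 covered libraries. MX1 is the largest share in 13EP12 and 13EP5, and IFIT3 in 13EP8 and 15CP1. ISG15 is seen in both Cohort C bars and in neither of Cohort B.

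Levels of different genes were compared by FPKM, which is per length of transcript. In 13EP5 the order was MX1 (93.6 FPKM), IFNAR2 (56.8), IFI6 (37.3), OAS1 (34.7), ISG15 (25.1), IFNAR1 (12.2) and IFIT3 (2.85). In 15CP1 it was IFIT3 (15.5 FPKM), IFI6 (14.5), MX1 (8.19), OAS1 (6.59), IFNAR2 (5.20), IFNAR1 (1.16) and IFIT1 (1.09). Among the genes with a value in both monkeys, IFIT3 was the lowest in 13EP5 and the highest in 15CP1. Without replicate values, differences between neighbours in either order could not be set against a spread. IFI44L was listed at 0 FPKM in every library despite its 16 counts. The FPKM table gave 0 for 8 of the 29 combinations of gene and library with at least 10 counts (27.6%, against 16.9% over all genes tested), including IFNAR2 in 13EP12 (51 counts) and ISG15 in 15CP1 (17 counts), so a 0 in it was not a measured absence.

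The rest of the pathway was compared with the same fit. The other receptor chains, IL10RB, IFNGR1 and IFNGR2, had fitted log2 fold changes of 0.11, 0.18 and 0.32 (SE 2.04, 2.03 and 1.57), and 0 of 3 were called. IFNGR1, the ligand-binding chain for interferon gamma, had 1129 counts and was also seen in 14HP24 (16 counts). Of 21 interferon ligand genes, 18 had 0 counts in every library, namely all the listed IFNA genes and IFNB1, IFNE, IFNK, IFNW1 and IFNL2. IFNG, the type II interferon made by T cells, had 110 counts, with 15 in 13EP12, 2 in 13EP8, 26 in 13EP5 and 67 in 15CP1 (log2 fold change 0.50, SE 1.87, adjusted p = 1). IFNL1 had 8 counts in 13EP8 and 1 in 15CP1. IFNL3 had all its 12 counts in 15CP6, which the fit called lower in Cohort C (adjusted p = 0.141) from that single library.

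Of 12 kinases and transcription factors of the pathway, 7 had fitted values above 0 and 5 below, 0 were called, and the median log2 fold change was 0.54, against 0.16 over all genes. JAK1 had 11472 counts (log2 fold change -0.42, SE 1.84) and IRF8 had 6917 (1.61, SE 1.93), each with an adjusted p over 0.9. IRF7 and IRF5, which drive interferon transcription and were chosen for mention after their values were seen, were seen only in 13EP5 and 15CP1. IRF7 had 18 counts in 13EP5 and 25 in 15CP1, and IRF5 had 50 and 17, with 0 in the other 8 libraries. Their adjusted p was 0.142 and 0.141. IRF7 and IRF5 are also abundant in plasmacytoid dendritic cells. The summed markers of these cells were highest in the same 2 libraries, with CLEC4C seen only in 13EP5 and LILRA4 only in 15CP1. The same 2 libraries had the highest total counts (3341503 and 5895609). The part of these cells and of depth in the IRF7 and IRF5 counts was not tested.

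Of 6 negative regulators (SOCS1, SOCS3, USP18, PIAS1, PTPN2 and PTPN6), 2 were above 0 and 4 below, with a median of -0.08 and 0 called. The 3 most sampled were PTPN2 (2089 counts, log2 fold change -0.07, SE 1.99), PIAS1 (1878 counts, 0.02, SE 2.01) and SOCS3 (1821 counts, -0.63, SE 1.98). Of 6 genes listed for the attachment of ISG15 to its targets (enzymes of that step or their relatives), 3 were above 0 and 3 below. Of these 6, 0 were called, and the median was -0.26. ARIH1 (2411 counts), TRIM25 (878) and HERC6 (619) had log2 fold changes of 0.20, 1.25 and -0.73 (SE 1.96, 2.05 and 2.06).

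Of the 44 other interferon-stimulated genes, 39 were tested. Of these, 19 had fitted log2 fold changes above 0 and 20 below, 0 were called at the study's thresholds or at an adjusted p under 0.05, and the median was -0.18. ADAR, an RNA-editing enzyme, had 5042 counts (log2 fold change 0.01, SE 1.91), SAMD9L 2967 (-1.67, SE 1.98) and TRIM22, a ubiquitin ligase that restricts viral transcription, 2772 (-0.28, SE 1.95). An unadjusted p under 0.05 was found for 4 of the 39, a smaller share than the 20.6% of all genes tested. They were named after their values were seen, and each had a fitted value above 0. These were MX2 (adjusted p = 0.214), OASL (0.144), IFI35 (0.141) and RTP4 (0.141). MX2, the paralog of MX1, had 38 counts in 15CP4, where MX1 had 0. IFI27, PLSCR1, TAP1 and PSMB9 had 0 counts in all 10 libraries, which with reads mapped to the human genome is no measured absence.

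Of 11 sensors of nucleic acids, 3 were above 0 and 8 below, with a median of -0.39. The most sampled were the RNA helicases IFIH1 (988 counts, log2 fold change -2.42, SE 2.09) and DDX58 (501 counts, -1.82, SE 2.11) and their adaptor MAVS (472 counts, -0.39, SE 2.05). Of the 11, 1 was called, against 6.43% of all genes tested in either direction and 1.07% as higher in Cohort C. TLR3, an endosomal receptor for double-stranded RNA, was called higher in Cohort C, with 40 counts in 13EP5, 8 in 14HP33 and 32 in 15CP1 and 0 in every other library (log2 fold change 7.88, SE 2.96, adjusted p = 0.141). The 8 counts of 14HP33 were raised to 114 CPM by its TMM factor of 0.0725.

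Several of the 10 genes lie beside relatives in the macaque annotation (RefSeq, a current assembly whose coordinates were not used here), in which all 10 were matched by symbol. No relatives were listed beside ISG15 or IFI6. IFNAR1 and IFNAR2 lie in a row with IFNGR2 and IL10RB, IFIT1 and IFIT3 in a row with IFIT2, IFIT1B and IFIT5, MX1 beside MX2, IFI44L beside IFI44 and OAS1 beside OAS3. Macaque reads were mapped to the human genome, and reads shared between such relatives could have been split by the counting, so the IFIT, MX, OAS and IFI44 values are uncertain to that extent. Genes at 0 in all libraries, such as the IFNA genes, IL3RA, TAP1 and PSMB9, are likewise no measured absence. The part of mapping and counting in these zeros was not tested.

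The genes most like the mean log2(CPM + 1) of the 7 stimulated genes over the 10 libraries were PRKAG2 (r = 0.984), MON1B (0.982), B2M (0.981), ZNF702P (0.981) and ZNF264 (0.981). B2M is also one of the 8 housekeeping genes. All 5 had counts in exactly the 4 covered libraries. Of 14161 genes compared, 1413 (9.98%) had r over 0.9, and the points share the depth of their libraries. Among the receptors, IFNAR1 (0.963) and IFNAR2 (0.932) followed the stimulated genes in this sense and IFNLR1 (0.186) did not.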

How the data were processed

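Sorted Tr1 cells of 10 rhesus macaques were sequenced as paired-end reads from stranded total RNA libraries. Per the labels and the study's methods, HISAT2 2.0.2 aligned the reads to hg38, the human genome, and the authors deposited raw counts per gene, with counting options for strand and shared reads not given in the sources used here. The deposited FPKM values were made by the authors with Cuffdiff 2.2.1. Cohorts come from the sample labels.

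The cohorts were compared (C over B) with the quasi-likelihood test of edgeR 4.0.16 in R 4.3.3, after TMM scaling, over 14168 genes with at least 10 summed counts, and all 10 genes passed. p-values were adjusted over all genes by Benjamini-Hochberg. SEs were back-calculated from each fold change and its F statistic. Single genes were tested by exact permutation over 252 assignments of log2(CPM + 1), with scipy 1.17.1. FPKM values were tested with limma 3.58.1. Libraries are from different monkeys, and replicate numbers do not pair them. The floor is 3 counts. Alternatives included DESeq2 1.42.0, limma-voom, other scalings and filters, thinning to 50000 counts, and leaving out each library.

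The members and lists were chosen with earlier results of these data known. All 10 members are named, and of each pathway list the 3 most sampled genes, those called, and those at 0 throughout, besides the 5 genes most correlated with the stimulated members. The result of 1 listed gene is not reported here.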

Additional observations from a re-analysis of the deposited data

Results flagged for a closer look

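In 5 of the 18 combinations of gene and cohort that could be examined, a single library stood apart from the other 4 by Dixon's 95% critical value (0.71). In 4 of these the other libraries of the cohort were all at 0, where the rate of 1 in 20 that chance gives does not apply. The log2(CPM + 1) of OAS1 was 3.73 in 13EP8 of Cohort B, that of IFIT1 was 4.56 in 13EP12 of Cohort B, and that of IFI44L was 2.11 in 15CP1 of Cohort C. IFNLR1 was at 2.67 in 13EP8 of Cohort B. In Cohort C, IFNLR1 was at 7.84 in 14HP33, where 16 counts were scaled by a TMM factor of 0.0725. The cause of none of these was tested.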

How the results depend on the processing

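The count of all genes called at p under 0.01 and 1.5-fold (911) was 1525 with RLE normalization, 69 with DESeq2, 67 with limma-voom, 88 with edgeR's exact test, 10 with filterByExpr (3414 tested), 98 with the index suffix as covariate, 117 in the 4 covered libraries, 220 after thinning (5285 tested), and 2, 3 and 1 with limma on log2(FPKM + 1), on log2(FPKM + 0.1) and on every gene with an FPKM above 0. Leaving out 1 library gave 76 (without 13EP5) to 695, and 143 without 15CP1. With the replicate block it was 0, although the numbers mark different monkeys and same-numbered libraries did not deviate together (correlations from -0.431 to 0.375). At an adjusted p under 0.05, the count of 0 became 2 with DESeq2, 1 in the covered libraries and 0 to 1 when leaving out 1 library. Of the 10 genes, 1 (ISG15, log2 fold change 5.94) was called with RLE normalization and 0 under the other alternatives, of which limma on FPKM tested 7 or 9 of the 10, the fit without 15CP1 tested 9 and thinning 1. With filterByExpr none of the 10 was tested.

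Directions turned for IFNAR2 with RLE (-0.22), library size only (-0.21), DESeq2 (-0.45), limma-voom (-0.10), the replicate block (-0.32), the covered libraries (-0.10) and thinning (-0.30), for IFNLR1 with the index suffix (-0.68) and the covered libraries (-0.57), for MX1 (-0.047) and IFI44L (-0.12) with DESeq2, for IFIT1 with limma-voom (0.54) and for IFIT3 with the index suffix (-0.34). The causes were not tested. Without 1 library, log2 fold changes ranged from -0.025 to 1.57 for IFNAR1, -0.95 to 1.08 for IFNAR2, -0.12 to 8.38 for IFNLR1, -1.03 to 2.35 for MX1 and -1.85 to 5.11 for IFIT1. Differences in mean log2(CPM + 1) ranged from -0.44 to 1.02 for IFNAR1, -0.75 to 0.93 for IFNAR2, -0.64 to 1.26 for MX1, -0.10 to 1.19 for IFI6 and -0.35 to 1.16 for IFIT1. Without 14HP33 or 15CP4 that of ISG15 was 2.25 (exact permutation test, unadjusted p = 0.0476). The log2 fold change of IFI44L could not be fitted without 15CP1. Of 223 values for log2 fold changes under the alternatives, 200 kept their direction and side of the threshold.

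Depth limits these results: 6 libraries had counts on at most 5 of 8 housekeeping genes, and the covered ones are 2 per cohort.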
